A study of Vitis vinifera with 2 samples.

Results

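The genomic clusters described here are those that gave 24 nt small interfering RNAs (siRNAs) in grapevine leaf but had no small RNA cluster at the same place in embryogenic callus. They came from the small RNA part of a study of Vitis vinifera cv. 'Chardonnay', in which proliferating embryogenic callus (EC), a dedifferentiated culture started from anthers and pooled from several Petri dishes, was set beside young leaves pooled from the same vines. Each tissue gave 1 library of 18 to 35 nt RNA, and each library was deposited as a list of clusters on the PN40024 12X genome, with the predominant fragment size of each cluster (its DicerCall). The members were chosen by these lists themselves. A leaf cluster was taken when its DicerCall was 24, its length was under 500 bp, and no EC cluster of whatever size class overlapped it by 1 bp or more. In this way 28904 of the 89597 leaf clusters were found, out of 317444 clusters in the 2 lists together. They are called leaf-only clusters below, as distinct from the 24295 leaf 24 nt clusters under 500 bp that an EC cluster did overlap (shared leaf clusters) and from the 145258 EC clusters of the same size class and length limit that no leaf cluster overlapped (EC-only clusters).

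In plants, 24 nt siRNAs are the product of the canonical RNA-directed DNA methylation pathway. RNA polymerase IV transcribes silenced sequence, above all transposable elements (TEs), an RNA-dependent RNA polymerase makes the transcript double-stranded, and a Dicer-like enzyme cuts it into short duplexes. One strand of each duplex is loaded into an Argonaute protein, which directs cytosine methylation to matching DNA. Loci of this kind often give siRNAs from both strands, and a cluster to which no strand is assigned lacks a clear majority of reads on either strand.

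With 1 library per tissue there was no replicate, and no test between tissues was possible. The values are counts of clusters, and the 95% intervals beside shares are exact binomial (Clopper-Pearson) and cover the counting of clusters alone. How many reads made up a cluster was not given, so a cluster listed in leaf and not in EC may have had EC reads too few to be listed. The EC list was the longer, with 227847 clusters. The study also reported more EC than leaf reads mapped to the genome after miRNA removal, and the depth of the libraries was not corrected for. Genes, TEs and base sequences at the clusters were not analysed here, and the identity of the tissues was not checked against marker genes.

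Leaf-only clusters made up 54.3% (53.9 to 54.8%) of the 53199 leaf 24 nt clusters under 500 bp and 32.3% of all leaf clusters. They covered 2.25 Mb, which was 27.9% of the length covered by the leaf list and 44.3% of that covered by its 24 nt class. The choice of members fixes these shares, which are given as a description. Among leaf clusters of every class and length, 58.9% had no EC cluster over them. By class this was 54.0% (53.6 to 54.5%) of 24 nt clusters of every length, the lowest of the 6 classes, and 74.7% (73.6 to 75.8%) of 21 nt clusters, which belong to post-transcriptional silencing and other pathways. This order of the classes is a description and no finding about them. A longer cluster is more easily overlapped, and the lengths of the classes were not compared. None of the 28904 members carried ShortStack's miRNA mark, which 3 leaf 24 nt clusters of every length did. The authors had removed miRNA reads before clusters were called, so the scarcity of the mark is no finding about the members.

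Some members lay just inside the rule. An EC cluster began or ended on the very next base in 39 of them and lay within 10 bp in 364, whereas 25 shared clusters met their EC partner over a single base and 415 over no more than 10. On the side of length, 21 members measured 450 bp or more. The longest were of 495 bp on chromosome 11 (1478953 to 1479447, no strand) and on chromosome 18 (10130331 to 10130825, minus strand). Next came clusters of 494 bp on chromosome 6 (5648172 to 5648665) and chromosome 16 (16386364 to 16386857) and one of 480 bp on chromosome 4 (6704178 to 6704657), each with no strand. The nearest EC cluster was of 24 nt at all 5, at distances of 73 to 1681 bp. The length limit left out 38 leaf 24 nt clusters of 500 to 1082 bp that had no EC cluster, 10 of them under 550 bp.

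The leaf-only clusters were short. Their lengths centred on 58 bp, and the middle 50% of them lay between 28 and 108 bp. The medians were 85 bp (37 to 140 bp) for shared leaf clusters and 90 bp (44 to 141 bp) for EC-only clusters. The most frequent length was 24 bp, the size of a single siRNA. It was found in 4560 members, or 15.8% (15.4 to 16.2%), against 9.10% (8.74 to 9.47%) of shared leaf clusters and 6.55% (6.43 to 6.68%) of EC-only clusters. At such a position the listed reads spanned no more than the length of 1 siRNA. Members of 25 bp numbered 1118, and those of each further length up to 35 bp between 280 and 811.

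**Figure D1:**
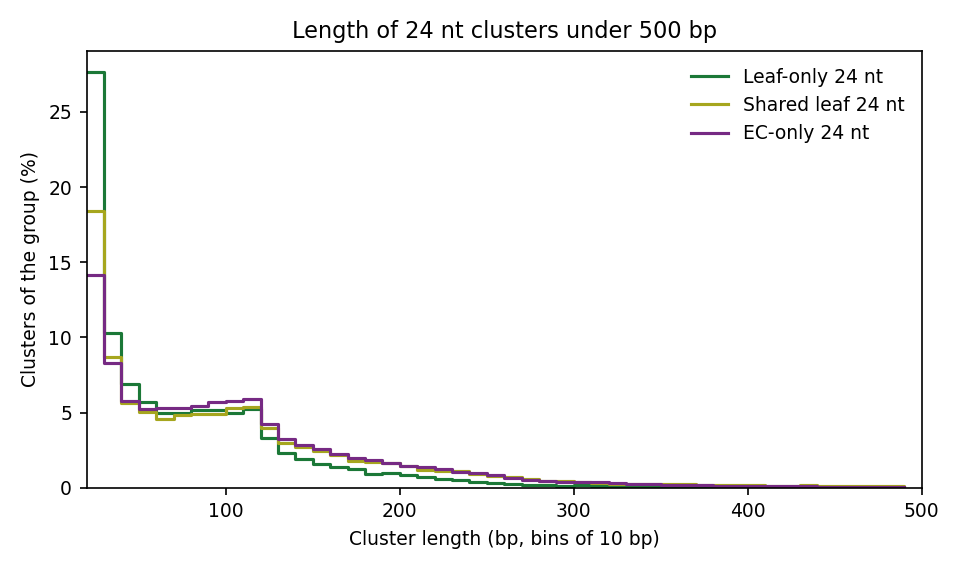
Share of clusters (%) by cluster length in bins of 10 bp for leaf-only, shared leaf and EC-only 24 nt clusters under 500 bp. The leaf-only line is highest in the shortest bins and lowest from 100 bp onwards, and each line steps down near 120 bp.

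Lengths of 110 to 119 bp held 5.23% of leaf-only clusters and the next 10 bp held 3.34%, a step also present in the other groups. Clusters over 100 bp made up 28.5% (28.0 to 29.1%) of leaf-only and 42.4% (41.8 to 43.0%) of shared leaf clusters, and those over 200 bp 5.11% (4.86 to 5.37%) and 12.6% (12.18 to 13.02%). Conversely, the share of leaf 24 nt clusters that were leaf-only was 63.9% (63.1 to 64.8%) at 24 to 30 bp, 58.2% (57.2 to 59.1%) at 31 to 60 bp, 55.8% (54.8 to 56.7%) at 61 to 100 bp, 48.3% (47.5 to 49.1%) at 101 to 200 bp and 32.5% (31.2 to 33.9%) at 201 to 499 bp. Since a longer interval is more easily overlapped, length and membership are linked by the rule, and the difference in length cannot be told apart from that link.

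Strand was not used to choose the clusters. The number of reads behind each strand call was not given, so its part in the shares below was not tested. Of the leaf-only clusters, 12700 (43.9%, 43.4 to 44.5%) had no strand assigned, 8432 lay on the plus strand and 7772 on the minus strand. The share without a strand was lower than in shared leaf clusters (48.3%, 47.6 to 48.9%) and in EC-only clusters (54.1%, 53.9 to 54.4%). The order was not the same within lengths. In leaf-only clusters the share without a strand was higher the longer the clusters, with 12.2% (11.55 to 12.96%) at 24 to 30 bp, 47.5% (46.2 to 48.7%) at 31 to 60 bp, 56.2% (54.9 to 57.5%) at 61 to 100 bp, 62.2% (61.1 to 63.4%) at 101 to 200 bp and 75.8% (73.5 to 77.9%) at 201 to 499 bp.

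**Figure D2:**
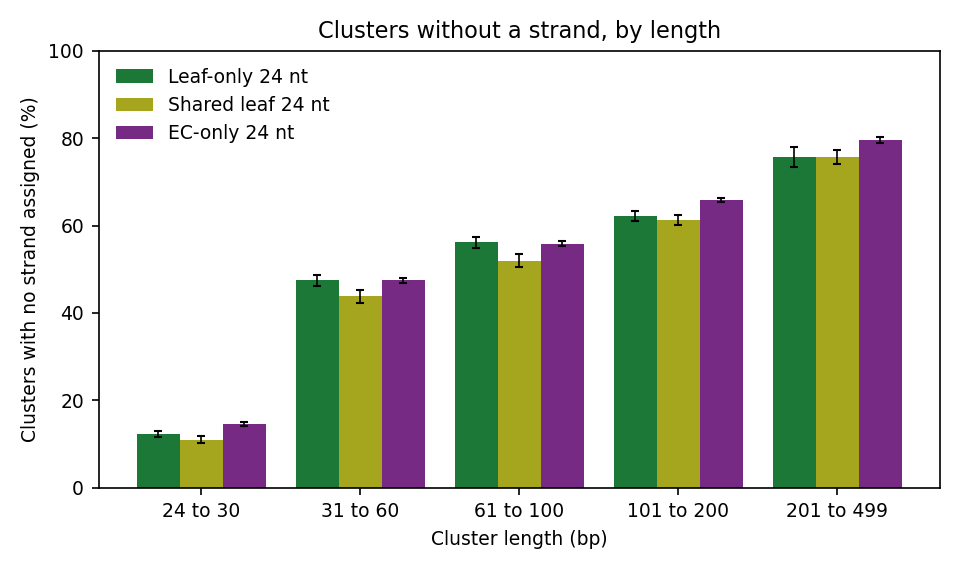
Clusters with no strand assigned (%) in 5 length bins (bp), for leaf-only, shared leaf and EC-only 24 nt clusters, with 95% exact binomial intervals as error bars. The share climbs with length in all 3 groups, and the leaf-only bars stand above the shared leaf bars by 3.64 points at 31 to 60 bp and 4.22 points at 61 to 100 bp.

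In every length bin the share without a strand was higher in leaf-only than in shared leaf clusters, though not always beyond the intervals. Over all lengths it was lower. Leaf-only clusters lacked a strand more often than shared leaf clusters of 31 to 60 bp (47.5% in leaf-only against 43.8%, 42.4 to 45.3%, in shared leaf clusters) and of 61 to 100 bp (56.2% against 52.0%, 50.5 to 53.4%), where the intervals of the groups did not overlap. In the other bins they did overlap, with differences of 1.22 points at 24 to 30 bp, 0.861 points at 101 to 200 bp and 0.0348 points at 201 to 499 bp. Compared with EC-only clusters, leaf-only clusters lacked a strand less often at 24 to 30 bp (12.2% against 14.6%), at 101 to 200 bp (62.2% against 65.8%) and at 201 to 499 bp (75.8% against 79.6%). In between, the values were 47.5% in both groups at 31 to 60 bp, and 56.2% in leaf-only and 55.9% in EC-only clusters at 61 to 100 bp. Of the 4560 members of exactly 24 bp, 88 (1.93%, 1.55 to 2.37%) had no strand. At that length the share was also low in shared leaf clusters (1.72%, 1.22 to 2.35%) and in EC-only clusters (3.29%, 2.94 to 3.67%).

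Among members with a strand, plus was slightly more frequent, at 52.0% (51.3 to 52.8%), a value close to the 51.7% of shared leaf and 52.0% of EC-only clusters. Members of exactly 24 bp were balanced, with 2240 on plus and 2232 on minus. At that length plus made up 52.0% (49.9 to 54.1%) of stranded shared leaf clusters and 49.6% (48.6 to 50.6%) of EC-only clusters. The share on plus was 50.5% (49.4 to 51.6%) at 24 to 30 bp, 55.4% (53.5 to 57.4%) at 101 to 200 bp and 58.9% (53.6 to 64.1%) at 201 to 499 bp. In the same bins shared leaf clusters had 51.2%, 51.95% (50.08 to 53.82%) and 56.0% (52.3 to 59.6%), and EC-only clusters 50.0%, 54.8% and 55.2%. In shared leaf clusters the plus share did not climb steadily, with 49.6% at 31 to 60 bp and 53.1% at 61 to 100 bp. By chromosome the plus share of members ran between 48.9% on chromosome 11 and 56.1% (52.0 to 60.1%) on chromosome 17.

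Being without an EC cluster did not mean being far from one. The nearest EC cluster lay a median of 493 bp away, with quartiles of 179 and 1369 bp. It lay within 100 bp of 14.1% (13.7 to 14.5%) of the members, within 500 bp of 50.4% (49.9 to 51.0%) and within 1000 bp of 67.9% (67.3 to 68.4%). No more than 1745 members (6.04%) were over 5000 bp from an EC cluster, 443 (1.53%) over 10000 bp and 12 over 30000 bp. EC-only clusters were farther from the sparser leaf list, with a median of 1840 bp to the nearest leaf cluster and 21.3% within 500 bp. As the lists differ in length, the 2 medians are given side by side and not as a difference between tissues. Clusters of 1 list were at least 65 bp apart in leaf and 67 bp in EC, whereas a leaf-only cluster could lie directly beside an EC cluster.

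**Figure D3:**
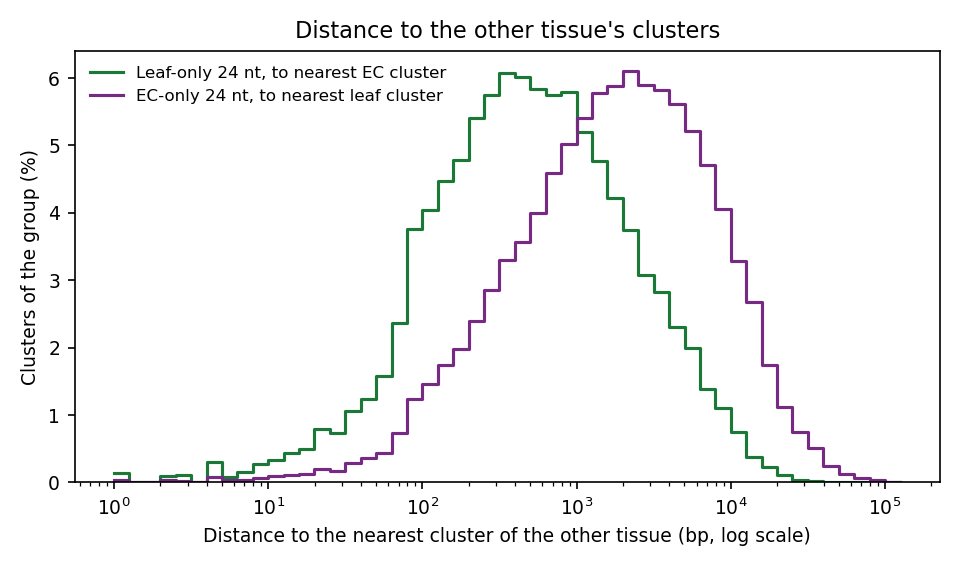
Share of clusters (%) by distance to the nearest cluster of the other tissue (bp, log scale) for leaf-only clusters, measured to EC clusters, and EC-only clusters, measured to leaf clusters. The medians are 493 bp for leaf-only and 1840 bp for EC-only clusters.

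Distance had little relation to the form of the cluster. The median distance was 504 bp for members of 24 to 30 bp, 483 bp at 31 to 60 bp, 471 bp at 61 to 100 bp, 496.5 bp at 101 to 200 bp and 564 bp at 201 to 499 bp. Members within 100 bp of an EC cluster had a median length of 58 bp, and 44.4% (42.8 to 45.9%) of them lacked a strand. Members over 5000 bp away had a median length of 53 bp, and 42.1% (39.7 to 44.4%) lacked a strand. Clusters of exactly 24 bp made up 15.7% of the nearer and 18.1% of the farther group.

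The 5 members farthest from an EC cluster on chromosomes 1 to 19 measured 24 to 218 bp. Of these, 3 lay on chromosome 16, namely a cluster of 86 bp without a strand (19800136 to 19800221) at 39623 bp, a cluster of 139 bp without a strand (19941568 to 19941706) at 34849 bp and a minus-strand cluster of 24 bp (19938910 to 19938933) at 32191 bp. The others were a cluster of 218 bp without a strand on chromosome 15 (18730377 to 18730594) at 36709 bp and a plus-strand cluster of 207 bp on chromosome 11 (526169 to 526375) at 31992 bp. At the other extreme, a plus-strand member of 99 bp on chromosome 1 (2391879 to 2391977) lay directly against an EC 24 nt cluster of 103 bp.

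To see whether leaf siRNAs gathered near EC clusters, leaf 24 nt clusters under 500 bp were counted by their midpoints and divided by the amount of sequence at each distance on chromosomes 1 to 19. Their density was 118 per Mb at 200 to 500 bp from an EC cluster, 81.9 per Mb at 500 to 1000 bp, 54.0 per Mb at 1000 to 2000 bp, 34.0 per Mb at 2000 to 5000 bp, 27.7 per Mb at 5000 to 10000 bp and 25.6 per Mb farther out. From 500 bp outwards all of these clusters were leaf-only, so the fall with distance is one of the members themselves. It rests on 4885 clusters in the band of 500 to 1000 bp and on 389 over 10000 bp away. Inside EC clusters, where leaf clusters are shared by definition, the density was 747 per Mb.

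**Figure D4:**
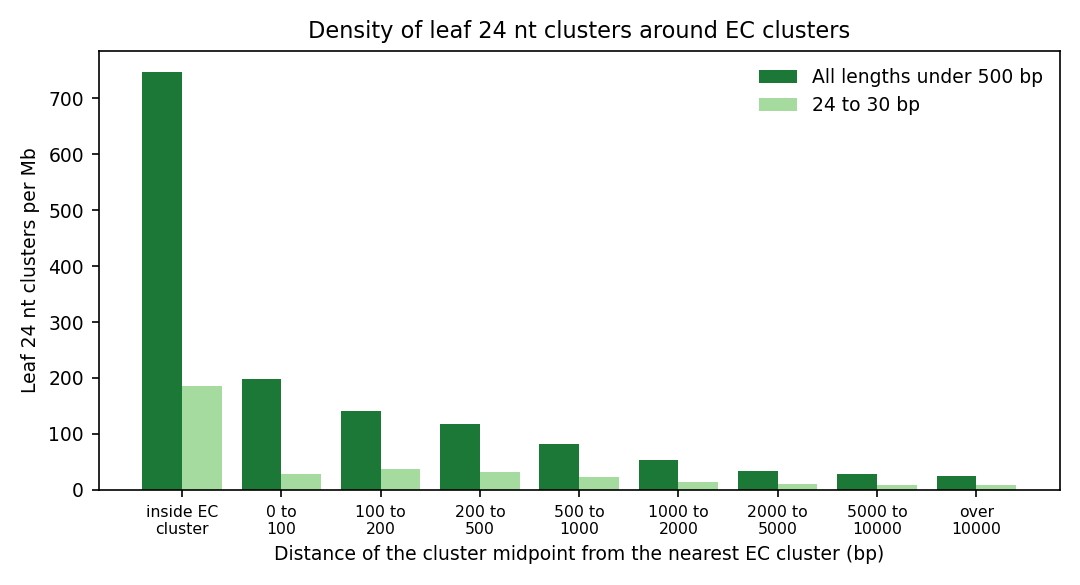
Density of leaf 24 nt clusters (clusters per Mb of sequence on chromosomes 1 to 19) by distance of the midpoint from the nearest EC cluster (bp), for all lengths under 500 bp and for clusters of 24 to 30 bp. The leftmost pair of bars holds shared clusters, and from 500 bp outwards all clusters are leaf-only, with densities that fall from bar to bar.

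The shortest clusters, whose midpoints are little affected by their own length, gave 28.1 per Mb within 100 bp, 37.7 per Mb at 100 to 200 bp, 31.4 per Mb at 200 to 500 bp and 8.7 per Mb beyond 10000 bp. Sequence far from EC clusters amounted to 15.2 Mb in the last band. Unresolved stretches of the assembly were not taken out of it. Of the 203142 gaps between neighbouring EC clusters on these chromosomes, 20276 (9.98%) held a member. The median length was 2818 bp for gaps with a member, whose quartiles were 1133 and 7151 bp, and 605 bp for all gaps, and of the 1885 gaps longer than 20 kb, 991 held a member. A gap must be longer than the member in it, and a longer gap has more room for one. These values are therefore a description.

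The nearest EC cluster was of 24 nt for 76.5% (76.0 to 77.0%) of the members, while 77.1% of all EC clusters were of 24 nt. It had no DicerCall for 14.4% (14.04 to 14.86%), against 14.1% of all EC clusters, and was of 21 nt for 2.14% (1.98 to 2.32%), against 1.98%. The surroundings of leaf-only clusters thus resembled the EC list as a whole in size class. The median distance was 467 bp where the nearest EC cluster was of 24 nt, 602 bp where it had no DicerCall and 646 bp where it was of 21 nt. The nearest EC cluster came before the member in 50.1% and after it in 49.9%. Where both had a strand, the strands were the same in 51.9% (48.8 to 55.0%) of 1035 pairs up to 100 bp apart, 52.5% (50.6 to 54.4%) of 2759 pairs at 100 to 500 bp and 49.2% (44.9 to 53.6%) of 526 pairs over 5000 bp apart. Of the 5 distance bands used, that of 100 to 500 bp was the 1 with an interval wholly above 50%.

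Members were found on all 33 sequences, with 26235 on chromosomes 1 to 19, 733 on the 13 sequences assigned to a chromosome without a place on it, and 1936 on the unplaced sequence. Per chromosome their number ran from 910 on chromosome 10 to 2025 on chromosome 18. Per Mb, chromosome 6 was richest, with 84.7, followed by chromosome 8 with 69.1, chromosome 18 with 69.0 and chromosome 16 with 67.6. Chromosome 11, with 47.5 per Mb, and chromosome 10, with 50.2 per Mb, were poorest.

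The leaf-only share of leaf 24 nt clusters had partly the same order. It was 61.4% (59.6 to 63.2%) on chromosome 6 and 59.95% (57.83 to 62.05%) on chromosome 9, which had no more than 55.1 members per Mb, and 45.6% (43.5 to 47.8%) on chromosome 11, 46.9% (45.0 to 48.8%) on chromosome 13 and 47.1% (44.9 to 49.4%) on chromosome 10. EC clusters were sparse on chromosomes 6 and 9 (379 and 400 per Mb) and dense on chromosomes 11, 13 and 10 (541, 545 and 606 per Mb). The median distance to an EC cluster was 623.5 bp on chromosome 6 and 609 bp on chromosome 9, and 356 bp on chromosome 11 and 363.5 bp on chromosome 10. The pairing did not hold throughout. Chromosome 7 had 403 EC clusters per Mb and a leaf-only share of 54.5%, and chromosome 16 had 515 EC clusters per Mb and a share of 57.7%. The part of EC density in these shares was not tested. Since the rule itself asks for the absence of an EC cluster, the pairing is a description and no finding about the members.

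Along the chromosomes, leaf-only clusters followed the leaf pattern. With each of the 19 chromosomes in 5 equal parts from start to end, 22.7% (22.2 to 23.2%), 21.5% (20.96 to 21.95%), 15.4% (15.01 to 15.89%), 18.5% (18.01 to 18.96%) and 21.9% (21.4 to 22.4%) of the members fell in each. Shared leaf clusters had 20.7%, 22.7%, 16.7%, 18.4% and 21.5% in the same parts. EC-only clusters, by contrast, had 13.5%, 19.5%, 23.7%, 23.7% and 19.7%. The outermost parts together held 44.6% of leaf-only, 42.3% of shared leaf and 33.2% of EC-only clusters. For each EC-only cluster there were 0.341 leaf-only clusters in the first part and 0.132 in the middle part.

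**Figure D5:**
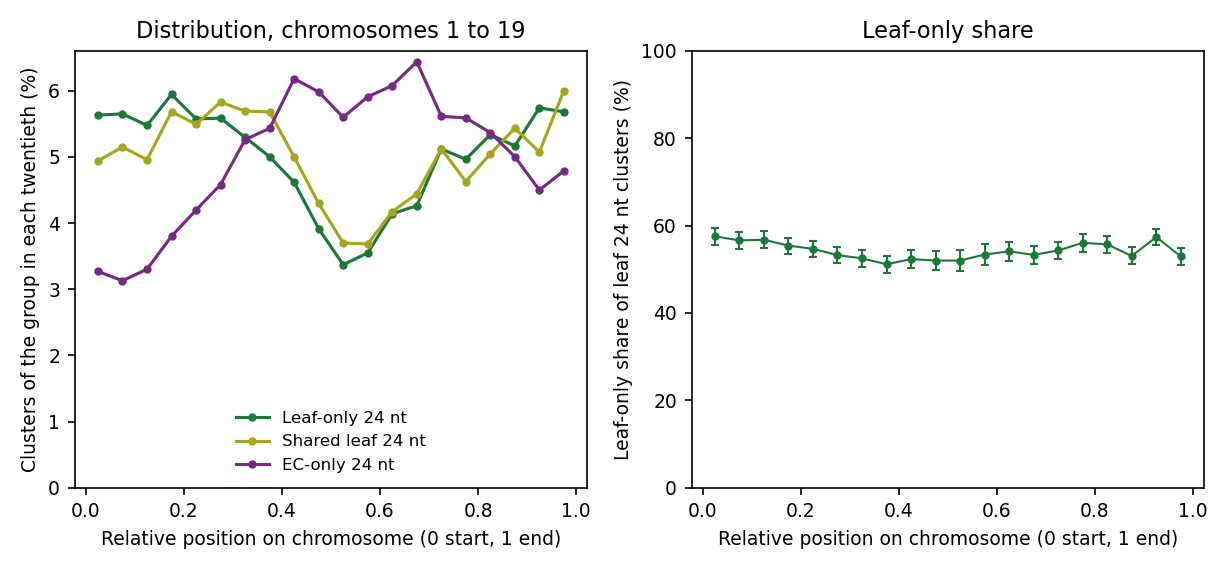
Left, share of each group of 24 nt clusters (%) in 20 equal parts of chromosomes 1 to 19, by relative position. Right, leaf-only share of leaf 24 nt clusters under 500 bp (%) in the same parts, with 95% exact binomial intervals. Leaf-only and shared leaf clusters dip in the inner parts, where EC-only clusters are most frequent, and the leaf-only share stays between 51.2 and 57.5%.

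The leaf-only share itself changed little, at 56.6% (55.6 to 57.5%) for the first of the 5 parts, 52.4% (51.3 to 53.5%) for the middle and 54.7% (53.8 to 55.7%) for the last. The length and strand of members were also much alike along the chromosomes, with median lengths of 57 to 59 bp and 42.5 to 45.8% without a strand. On 16 of the 19 chromosomes the outermost parts held over 40% of the members, which is their part of the length. The exceptions were chromosome 17 (34.4%), chromosome 18 (37.0%) and chromosome 3 (38.8%). The poorest part was an inner one on 17 chromosomes, but the richest part was an outer one on no more than 8 of the 19. On chromosome 13 the middle part held 126 members and the second part 332, and on chromosome 5 the middle held 147 and the last 370.

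In 420 complete windows of 1 Mb, members numbered 8 to 139, with a median of 62 (quartiles 43.8 and 77), and no window was without them. The richest window, Mb 12 to 13 of chromosome 18, held 139 leaf-only, 68 shared leaf and 138 EC-only clusters. Mb 6 to 7 of chromosome 6 followed with 124 leaf-only and 144 EC-only clusters. The next were Mb 22 to 23 of chromosome 19 with 122 members and Mb 25 to 26 of chromosome 14 with 120. Mb 17 to 18 and Mb 18 to 19 of chromosome 16 tied with 119 members each, beside 183 and 159 EC-only clusters. Of all 420, the window of chromosome 18 named here was the 1 in which leaf-only clusters outnumbered EC-only clusters.

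Among the 394 windows with at least 50 leaf 24 nt clusters under 500 bp, the leaf-only share had a median of 54.6% (quartiles 48.5 and 60.5%). It was highest for Mb 10 to 11 of chromosome 18 (73.1%, 64.8 to 80.4%, 98 of 134 clusters). Then came Mb 8 to 9 of chromosome 6 (71.8%, 79 of 110), Mb 19 to 20 of chromosome 16 (70.8%, 85 of 120), and, on chromosome 14, Mb 28 to 29 (70.6%, 96 of 136) and Mb 14 to 15 (35 of 50). The window on chromosome 16 also holds the 3 members named above as far from EC clusters. The lowest shares were those of Mb 15 to 16 (29.8%, 18.4 to 43.4%, 17 of 57) and Mb 6 to 7 (32.9%, 51 of 155) of chromosome 10. Low shares were also found for Mb 10 to 11 of chromosome 12 (33.3%, 18 of 54), Mb 10 to 11 of chromosome 4 (33.7%, 35 of 104) and Mb 9 to 10 of chromosome 11 (34.04%, 32 of 94). These windows were picked by the share itself, which their intervals leave out of account.

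With the windows put in order by their number of EC clusters and put into 4 classes of nearly equal size, the leaf-only share was 60.5% (59.6 to 61.3%) where EC clusters numbered 207 to 333, 56.6% (55.7 to 57.5%) at 335 to 462, 52.8% (51.9 to 53.7%) at 463 to 599 and 46.8% (45.9 to 47.8%) at 600 to 945. The median window of these classes held 69, 71.5, 58 and 48 leaf-only clusters, out of 117, 125.5, 111 and 101 leaf 24 nt clusters under 500 bp. Since the rule itself asks for the absence of an EC cluster, this order is a description and no finding about the members.

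Neighbouring leaf clusters were compared by whether they were leaf-only, which is the value the rule used, so the shares are a description and no finding about the members. The next leaf 24 nt cluster under 500 bp along the sequence was itself leaf-only for 58.4% (57.9 to 59.0%) of the members, and for 49.4% (48.8 to 50.1%) of shared leaf clusters. The shares differed most at short range. For neighbours up to 200 bp away the shares were 63.0% (61.1 to 64.8%) after a leaf-only cluster and 39.2% (37.2 to 41.2%) after a shared one. Beyond 5000 bp they were 58.4% (57.6 to 59.3%) and 54.8% (53.8 to 55.8%). A leaf cluster close to a shared one is by construction close to an EC cluster, and close neighbours can lie in the same gap between EC clusters.

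The nearest other leaf cluster of whatever class lay a median of 737 bp from a member (quartiles 218 and 2488 bp). It was of 24 nt for 65.3% of the members, had no DicerCall for 21.7%, and was of 23 nt for 6.60% and of 21 nt for 3.92%. For comparison, of all 89597 leaf clusters, 53573 were of 24 nt, 21458 had no DicerCall, 5622 were of 23 nt and 6109 of 21 nt. For 16926 members (58.6%) an EC cluster was nearer than the nearest other leaf cluster. The EC list held 227847 clusters against 89597 in leaf, and leaf clusters lay at least 65 bp from each other. This share is therefore a description and no finding about the members. When members within 500 bp of each other were joined, 25556 loci remained.

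Counting members that followed each other with no other cluster of either tissue between them gave 23320 runs. Single members made up 19137 of them, and 9767 members (33.8%) stood in runs of at least 2. Runs of at least 5 numbered 73, and the longest had 7 members, of which there were 9. The first 5 of these by sequence name lay on chromosome 1 (9319485 to 9321786, 2302 bp), chromosome 15 (14217137 to 14225848 and 14235500 to 14243591), chromosome 16 (18154139 to 18157625) and chromosome 17 (1151949 to 1159581). The run on chromosome 1 was the most compact of these, its 7 clusters of 24 to 232 bp filling 31.2% of the span, with 4 on minus, 1 on plus and 2 without a strand. The runs on chromosome 15 lay less than 10 kb apart and their members numbered 7 in each, with 5 of the 7 lacking a strand in both.

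The intervals for the strands of neighbours within a run included 50%. Of 445 pairs up to 200 bp apart in which both members had a strand, 54.2% (49.4 to 58.9%) were on the same strand, and of 343 pairs at 200 to 500 bp, 46.9% (41.6 to 52.4%). The stretches without EC clusters that held most members, picked out after their values had been seen, were of 60264 bp on chromosome 3 (4995365 to 5055628) and of 45515 bp on chromosome 16 (14592328 to 14637842), with 10 members each. They made up 10 of the 12 leaf clusters in the first stretch and 10 of the 14 in the second, and the remaining clusters had no DicerCall.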

How the data were processed

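Cluster lists of 1 EC and 1 leaf library were used. Small RNA came from 50 mg of each tissue, and its 18 to 35 nt fraction was cut from a gel. The authors trimmed and size filtered the reads in the UEA small RNA Workbench, removed tRNA, rRNA and miRNA reads, and mapped the rest to the PN40024 12X genome with ShortStack, which also places multi-mapping reads by the unique reads around them, joins reads into clusters and calls their DicerCall and strand. Each of these steps can affect where a cluster is listed. The deposited values are the start and end of each cluster in bp, and 0 clusters had a score, so no counts of reads were given. The sources used here do not give ShortStack's minimum coverage or padding.

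Starts and ends were 1-based. Overlap, distance (the difference between facing ends, so that adjacent clusters are 1 bp apart) and position were computed in Python 3.11.15 with pandas 2.3.3, numpy 2.4.6 and scipy 1.17.1, and the search was tested on simulated data. The largest cluster end in either list stood for sequence length, and midpoints placed clusters in parts and in complete windows of 1 Mb. Regions were named by rule: the 5 longest members and the 5 farthest from EC, the 5 windows with most members and of highest and lowest share, the 5 longest runs, and members at the edge of the selection. The members, rules and comparisons were chosen with earlier results of these data known. The densities by distance, the gaps, the neighbouring clusters and the classes of windows by EC clusters were added after the lists had been seen. Alternatives to the overlap, the length limits, the sequences and the parts were tried. Sequences, base composition, genes and TEs were planned but not analysed, since no genome or annotation of the 12X build was used here.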

Additional observations from a re-analysis of the deposited data

How the results depend on the processing

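The share of members without a strand minus that of shared leaf clusters was -4.33 points over all lengths. It was 3.64 points at 31 to 60 bp and 4.22 at 61 to 100 bp, where the group intervals did not overlap. They did overlap elsewhere, with 1.22 points at 24 to 30 bp, 0.861 at 101 to 200 bp and 0.0348 at 201 to 499 bp. Leaf-only clusters were shorter, and short clusters of either group mostly had a strand, but the part of length in the difference was not tested. When EC clusters of 24 nt alone counted as overlapping, which freed 3206 clusters, 60.4% of leaf 24 nt clusters under 500 bp were leaf-only, with a median length of 61 bp and a median distance of 644 bp. When no EC cluster was allowed within 100 bp the share was 46.7%, the distance 649 bp and the outer parts held 45.2% of members. Within 500 bp these were 26.9%, 1384 bp and 46.1%, with 14328 members left. Both limits take out the nearest members, so the lower share and longer distance follow from them. At a minimum of 30 bp the leaf-only share was 51.3%, the median length 86 bp and the share without a strand 56.5%. When shorter clusters than 100 bp were dropped from each list, 11725 members were left, with a leaf-only share of 62.2%, a median length of 137 bp, a median distance of 1267 bp, 64.6% without a strand and 46.1% in the outer parts. A minimum length raises the median length by itself, and longer clusters lacked a strand more often. The other 24 values obtained, among them all of those with no upper length limit and on chromosomes 1 to 19 alone, stayed within counting error or, for numbers of members, within 1.5 times. Reads per cluster were unknown, so the effect of depth on membership could not be measured. No paired analysis was possible because EC and leaf were represented by 1 library each.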
